A study of Mus musculus with 15 samples.

Results

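The array followed 9 genes of intestinal iron transport, among 20144 named genes on it: Cybrd1, Slc11a2, Fth1, Slc40a1, Heph, Tfrc, Aco1, Ireb2 and Epas1. They were found as every probe whose RefSeq accession maps to these symbols, which gave 17 probes, all of them bright enough to be tested. The genes were picked with earlier results of these arrays in view, so their values describe the samples. The p-values printed are limma's, adjusted over all 28480 probes tested; they place each gene among all probes and are not independent evidence, and "called" means past the 0.05 threshold on that scale. Each value is a log2 ratio of crypt RNA over a universal mouse reference RNA, a mixture made by a supplier that was put on every array in the other colour. A ratio therefore ranks the samples for 1 probe and does not rank the genes.

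RNA came from small intestinal crypts, the epithelial pockets that hold the dividing cells. The mice were 6 to 8 weeks old and were sampled 24 h after treatment. The control group received an IgG antibody, although the study's design text calls it untreated. The N1N2 group received a single dose of antibodies that block the receptors Notch1 and Notch2, given in the labels as 1 mg/mL. The N1N2 plus Lrp6 group received these together with an Lrp6 antibody at 30 mg/kg; Lrp6 is a membrane protein through which Wnt signals act. Each group has 5 arrays, called biological replicates by the study; the sources used here name neither the strain and sex of the mice nor how many animals stand behind an array. No group received the Lrp6 antibody alone. The crypts were shaken out of pieces of the small intestine, and the sources used here do not say which stretch of intestine each suspension came from. Because each sample is a bulk suspension, fewer cells of a type and less RNA per cell cannot be told apart.

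Dietary iron is taken up mainly in the duodenum. Cybrd1 (duodenal cytochrome b) reduces ferric iron at the brush border and Slc11a2 (DMT1) carries the ferrous iron in; Fth1, the ferritin heavy chain, stores it; Slc40a1 (ferroportin) exports it to the blood, where Heph (hephaestin) oxidises it. Tfrc, the transferrin receptor, takes iron up from the blood side and is used heavily by dividing crypt cells. Aco1 and Ireb2 encode the iron regulatory proteins, which bind stem-loops in ferritin, ferroportin and transferrin receptor mRNA and act on translation or on mRNA stability, and Epas1 encodes HIF-2alpha, a hypoxia factor that in this tissue is known to drive Cybrd1, Slc11a2 and Slc40a1.

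A share of 57.2% to 79.8% of the probes on an array lay well above background in the crypt channel, with group means of 75.8% in control, 73.9% in N1N2 and 64.8% in N1N2 plus Lrp6. The arrays lay on 6 slides, of which 1 held arrays of both control (replicates 4 and 5) and N1N2 (replicates 1 and 2). All N1N2 plus Lrp6 arrays lay on slides of their own, so slide and group cannot be told apart in the comparisons with that group. Markers of mature enterocytes had a list mean over 14 genes of 6.89 in control, 7.11 in N1N2 and 6.84 in N1N2 plus Lrp6 on the log2 ratio scale, and none of the 14 was called in any comparison (1 in each at an unadjusted limma p under 0.05). By sign, 13 of the 14 were higher in N1N2 than in control (median difference 0.18). All 14 were lower in N1N2 plus Lrp6 than in N1N2 (median -0.27), and 10 were lower than in control (median -0.06).

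Cybrd1, which reduces iron at the brush border, and Slc40a1, which lets it out to the blood, were both lower after Notch blockade by more than 2-fold and Fth1 was lower by a smaller step. All 3 were also called lower in N1N2 plus Lrp6 against control, and none was called between the treated groups. Slc11a2, Heph, Aco1 and Ireb2 were not called in any comparison. Of the 17 probes, 5 were called lower and 0 higher in N1N2 against control, where 11.4% of all probes were called, 6.2% higher and 5.23% lower. The 5 are both probes of Cybrd1 and 1 each of Slc40a1, Fth1 and Epas1; the dimmer Cybrd1 probe was bright enough for testing only through control, the group where it is high. When the Lrp6 antibody was added to N1N2, 1 of the 17, for Tfrc, was called and it was higher, where 16.5% of all probes were called, 9.68% higher and 6.87% lower. Against control, N1N2 plus Lrp6 had 3 of 17 called, all lower (Cybrd1, Slc40a1 and Fth1), where 0.358% of all probes were called, 0.197% higher and 0.162% lower. These comparisons share arrays, and they were part of what the genes were picked on, so nothing is read from the counts beyond their values. N1N2 and control arrays did not overlap for 6 of the 17 probes and for 12.2% of all probes, the treated groups for 1 and for 9.99%, and N1N2 plus Lrp6 and control arrays for 4 and for 2.62%.

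**Figure D1:**
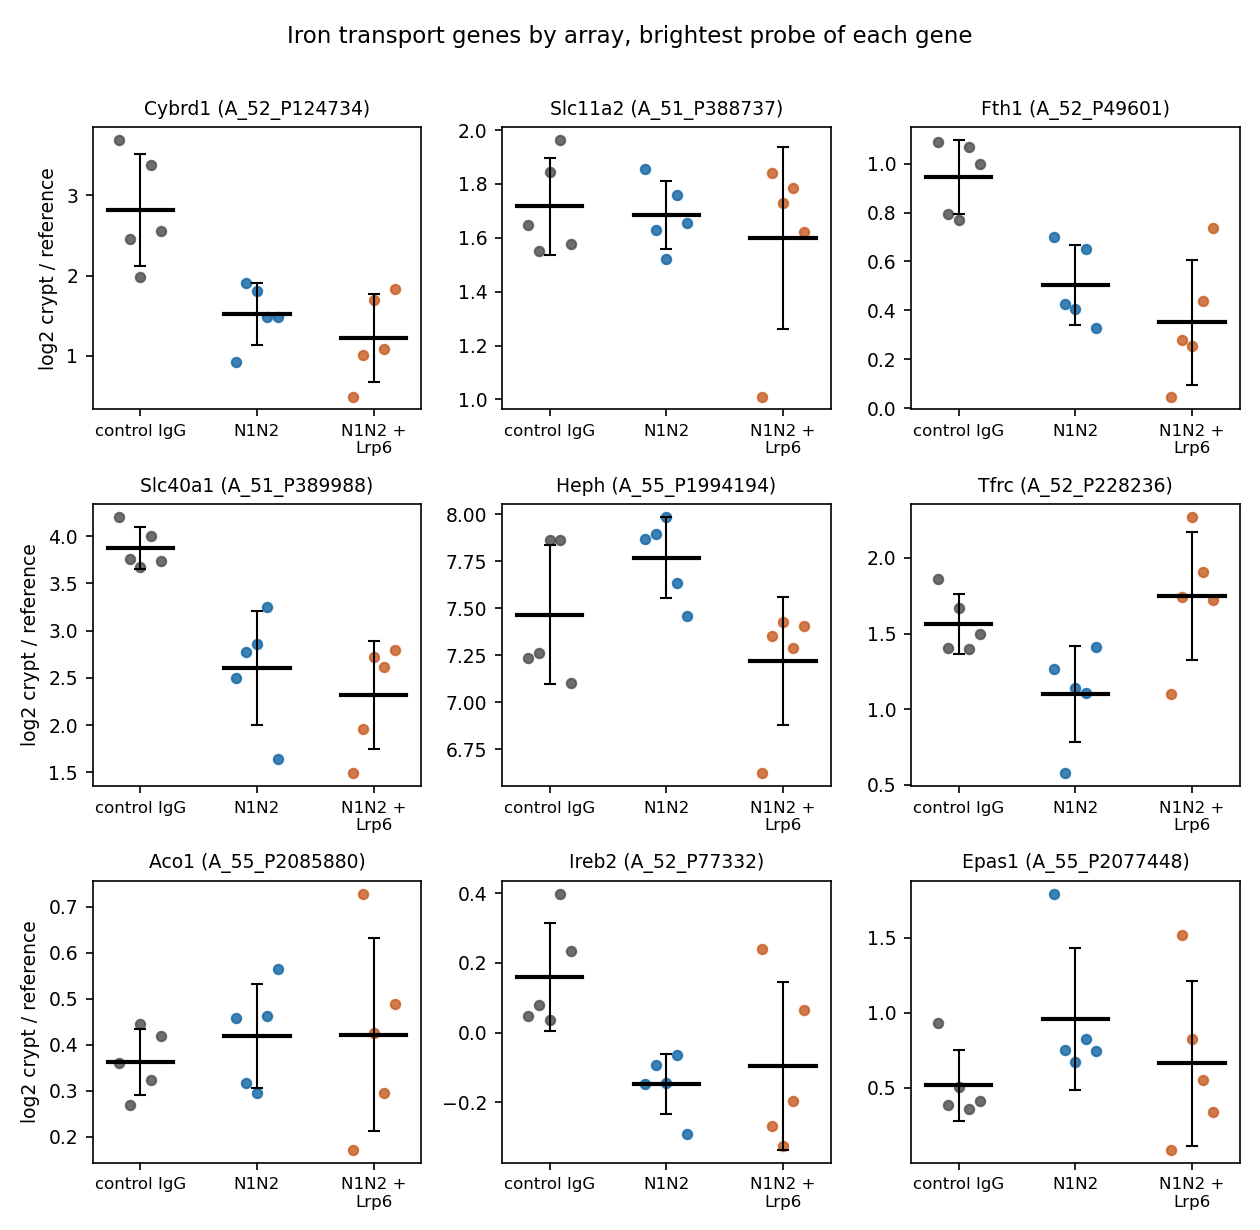
Log2 ratio of crypt over reference RNA on each array (points) for the brightest probe of each of the 9 genes, by group (5 arrays each), with the group mean (long bar) and SD (error bars); the y axes differ between panels. For Cybrd1, Slc40a1 and Fth1 the control points lie above all N1N2 points, and for Aco1 and Slc11a2 the 3 groups overlap.

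Of the uptake genes, Cybrd1 was called lower and Slc11a2 was not called. On the brighter Cybrd1 probe (A_52_P124734), control replicates 1 to 5 read 3.69, 2.46, 1.98, 3.38 and 2.56. N1N2 replicates read 0.92, 1.91, 1.81, 1.48 and 1.48, and N1N2 plus Lrp6 replicates 0.49, 1.01, 1.69, 1.09 and 1.83. The lowest control array thus lay above every treated array, while the control arrays themselves spread over more than 1 log2 unit. The mean went from 2.81 ± 0.70 (SD, n = 5) in control to 1.52 ± 0.39 in N1N2, a difference of -1.29 (SE 0.31), or 2.45-fold lower (limma adjusted p = 0.0162). In N1N2 plus Lrp6 it was 1.22 ± 0.54, with 4 of 5 arrays well above background, which is -0.30 from N1N2 (95% interval -0.98 to 0.39, limma adjusted p = 0.607; -1.15 with the scanner's ratio, not called) and -1.59 from control (limma adjusted p = 0.0441). By size, that last difference ranked 10 among 28480 probes. The reference signal of this probe was dim, with a mean raw intensity of 40.9 against 480 in the crypt channel. The N1N2 difference from control moved with the background correction. It was -1.44 with an offset of 16 in place of 50 and -1.38 without background subtraction, both called.

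The second Cybrd1 probe (A_55_P1956472) followed the first closely over the 15 arrays (r = 0.94, a description). It had a mean of 1.32 ± 0.67 in control, 0.36 ± 0.19 in N1N2 and 0.41 ± 0.21 in N1N2 plus Lrp6, and it was well above background on 5, 2 and 3 arrays of those groups, so it was bright enough for testing only through the control group. Its difference was -0.96 in N1N2 (limma adjusted p = 0.0186) and -0.91 in N1N2 plus Lrp6 against control (limma adjusted p = 0.126). With the scanner's ratio these were -2.40 and -2.52, neither called (limma adjusted p = 0.0517 and 0.13). The reference signal was dim here too (mean raw intensity 43.2). With an offset of 16 in the background correction the differences were -1.27 and -1.21, the first called. Control replicates 1 and 4 were the highest on both probes.

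Slc11a2, the transporter that acts right after Cybrd1, gave 1.65, 1.55, 1.85, 1.96 and 1.58 in control on its brighter probe (A_51_P388737). N1N2 arrays gave 1.86, 1.63, 1.52, 1.76 and 1.66, and N1N2 plus Lrp6 arrays gave 1.01, 1.84, 1.73, 1.79 and 1.62. Apart from the single low array, N1N2 plus Lrp6 replicate 1, all groups covered the same range. The differences were -0.03 in N1N2 against control (95% interval -0.33 to 0.27) and -0.12 in N1N2 plus Lrp6 against control (-0.42 to 0.18), intervals that leave out a change as large as that of Cybrd1. On the dimmer probe (A_52_P254298) the group means were 0.42, 0.26 and 0.22, and the largest difference was -0.20, with a limma adjusted p of 0.369.

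Storage was followed by a single Fth1 probe (A_52_P49601). Control arrays read 1.09, 0.79, 0.77, 1.07 and 1.00, N1N2 arrays 0.70, 0.43, 0.41, 0.65 and 0.33, and N1N2 plus Lrp6 arrays 0.05, 0.28, 0.26, 0.44 and 0.74. All treated arrays lay below the lowest control array. The difference was -0.44 (SE 0.12) in N1N2, 1.36-fold lower (limma adjusted p = 0.0265), and -0.59 in N1N2 plus Lrp6 against control (limma adjusted p = 0.0447). Between the treated groups it was -0.15 (limma adjusted p = 0.454), a sign that turned with the normalization: with each array centred on its median in place of loess it was 0.51 (limma adjusted p = 0.0302), and the difference of N1N2 plus Lrp6 from control was then -0.30 and not called. In N1N2 the call was lost without any of 6 arrays (control replicates 1, 4 and 5, N1N2 replicates 2, 3 and 5), when the limma adjusted p lay between 0.0559 and 0.0669. The size of the N1N2 difference from control also moved with the normalization: it was -0.81 with median centring (limma adjusted p = 0.0055).

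Of the export genes, the channel was called lower and its partner oxidase was not called. Slc40a1 (A_51_P389988) read 4.20, 3.75, 3.67, 4.00 and 3.73 in control, a tight group. It read 2.50, 2.77, 2.86, 3.25 and 1.64 in N1N2 and 1.49, 1.96, 2.72, 2.62 and 2.80 in N1N2 plus Lrp6, so neither treated group reached the control range. The mean fell from 3.87 ± 0.22 to 2.60 ± 0.60, a difference of -1.27 (SE 0.28), or 2.41-fold lower (limma adjusted p = 0.00946). With the Lrp6 antibody added it was 2.32 ± 0.57, -0.29 from N1N2 (95% interval -0.89 to 0.32, limma adjusted p = 0.571) and -1.56 from control (2.94-fold lower, limma adjusted p = 0.0278), which ranked 11 by size, next to Cybrd1. Ferroportin is also abundant in macrophages: 7 of 9 listed macrophage markers were tested, none was called in any comparison (1, 0 and 2 at an unadjusted limma p under 0.05), and their mean lay between 0.53 and 0.62 on control arrays, 0.38 and 0.56 on N1N2 arrays and 0.17 and 0.62 on N1N2 plus Lrp6 arrays. Of the other 2, Cd163 was well above background on 0 arrays and Cd68 was not matched to a probe. The 7 tested markers had group means of 0.57 in control, 0.45 in N1N2 and 0.40 in N1N2 plus Lrp6. In each treated group 5 of the 7 had a mean below that in control. The part of macrophages in the Slc40a1 values was not tested.

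The calls of Cybrd1, Slc40a1 and Fth1 did not all rest on the same footing. In N1N2 against control, those of Cybrd1 and Slc40a1 held without each of the 10 arrays in turn. With the scanner's own ratio in place of the ratios computed here, the Cybrd1 difference was -1.24 and not called (SE 0.65, limma adjusted p = 0.265). In N1N2 plus Lrp6 against control, leaving out single arrays took away the Cybrd1 call in 8 of 10 cases (held without control replicate 3 or N1N2 plus Lrp6 replicate 5), the Slc40a1 call in 7 of 10 (held without control replicate 1 or N1N2 plus Lrp6 replicate 1 or 5) and the Fth1 call in 9 of 10 (held without N1N2 plus Lrp6 replicate 5). The Cybrd1 difference then stayed between -1.80 and -1.37 and that of Slc40a1 between -1.68 and -1.35. Median centring ended the calls of all 3 genes against control in N1N2 plus Lrp6, with differences of -1.88, -1.60 and -0.30, and so did a replicate block, which left the differences as they were; scaling between arrays, the scanner's ratio, testing all probes or fitting those 2 groups alone ended those of Cybrd1 and Fth1. On the 1 slide that held both control and N1N2 arrays, with 2 arrays of each, the N1N2 difference was -1.55 for Cybrd1 (limma adjusted p = 0.18), -1.23 for Slc40a1 (limma adjusted p = 0.106) and -0.47 for Fth1 (limma adjusted p = 0.235), and with slide as a fixed block none of the 3 was called either, with the same differences. Hardly any of all probes were called on that slide alone, so the missing calls there say little about these genes.

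Heph, the ferroxidase that works with ferroportin, gave ratios on its brightest probe (A_55_P1994194) of 7.24, 7.26, 7.86, 7.86 and 7.10 in control. N1N2 arrays gave 7.87, 7.90, 7.99, 7.64 and 7.46, and N1N2 plus Lrp6 arrays gave 6.62, 7.36, 7.43, 7.29 and 7.41. The treated groups did not overlap, while control spanned both. The difference of N1N2 plus Lrp6 from N1N2 was -0.55 (SE 0.18, limma adjusted p = 0.050002, just outside the threshold), and that of N1N2 from control 0.30 (limma adjusted p = 0.311). Both signs turned when the arrays were scaled to a common spread, to 0.17 and -0.45, so no direction is given, although the difference between the treated groups was called lower in 6 of 13 alternatives (limma adjusted p down to 0.0058) and without N1N2 replicate 5 or N1N2 plus Lrp6 replicate 2 or 3. The other probes, both assigned to a second Heph transcript record, had group means of 0.54, 0.54 and 0.37 (A_55_P1994190) and of 1.12, 1.10 and 0.91 (A_52_P498219), with no call.

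**Figure D2:**
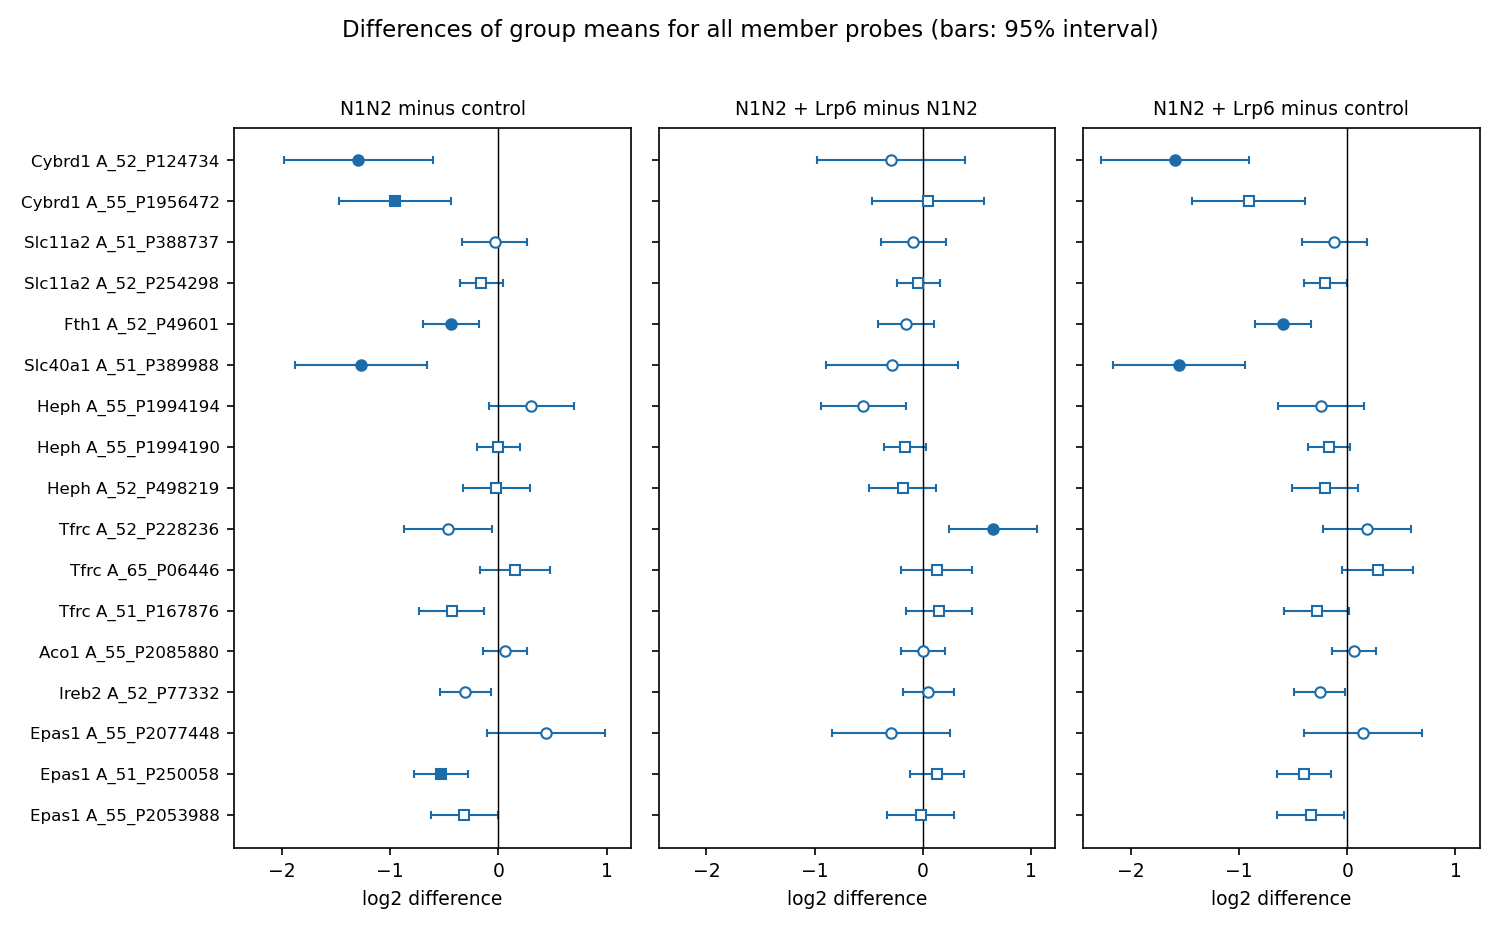
Difference between group means on the log2 scale (x axis) for each of the 17 probes in the 3 comparisons, with 95% intervals; circles mark the brightest probe of a gene, squares its other probes, and filled symbols passed the adjusted p threshold. The Cybrd1 and Slc40a1 differences from control lie left of 0 in both outer panels, and the filled symbol in the middle panel is Tfrc.

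Tfrc, on the blood side, was the only one of the 9 genes called when the Lrp6 antibody was added to Notch blockade. Its brightest probe (A_52_P228236), printed as 10 spots that were averaged, read 1.86, 1.40, 1.67, 1.40 and 1.50 in control. It read 1.27, 0.58, 1.14, 1.10 and 1.41 in N1N2 and 1.10, 1.74, 2.27, 1.91 and 1.72 in N1N2 plus Lrp6. N1N2 arrays were mostly the lowest, and N1N2 plus Lrp6 replicate 1 fell among them, so the treated groups overlapped. The mean rose from 1.10 ± 0.32 in N1N2 to 1.75 ± 0.42 in N1N2 plus Lrp6, a difference of 0.65 (SE 0.19, 1.57-fold, limma adjusted p = 0.0268). From control, N1N2 differed by -0.47 (limma adjusted p = 0.123; called lower with arrays scaled to a common spread, with array weights and in a fit of these 2 groups) and N1N2 plus Lrp6 by 0.18 (limma adjusted p = 0.721). The call was lost without N1N2 replicate 2 or 4 or N1N2 plus Lrp6 replicate 3 or 4 (limma adjusted p between 0.0586 and 0.0748) and when the control arrays were left out of the fit (0.0652).

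The other Tfrc probes did not follow the first over the 15 arrays (r = 0.14 and 0.15, with -0.10 between them, as a description). A_65_P06446 had means of 1.83, 1.99 and 2.11 in control, N1N2 and N1N2 plus Lrp6, and A_51_P167876 had 0.54, 0.10 and 0.25. Neither was called, but the N1N2 difference of the latter from control, -0.43 (limma adjusted p = 0.0559), was called in 4 of 13 alternatives and without control replicate 1 or N1N2 replicate 3. All 3 probes carry the same accession, and the files used here do not place them on the transcript.

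The group means of proliferation markers were ordered like those of the brightest Tfrc probe. Of 14 such genes, 10 were called lower in N1N2 against control, where 6.03% of all named genes were. In N1N2 plus Lrp6 against N1N2, 12 of the 14 were called higher, where 9.13% of all named genes were. The mean of the 14 lay between -1.58 and -1.11 on control arrays, -2.08 and -1.71 on N1N2 arrays and -1.36 and -0.79 on N1N2 plus Lrp6 arrays. Single arrays did not follow this order: N1N2 plus Lrp6 replicate 1 had the highest marker mean of its group and the lowest Tfrc ratio, and so had N1N2 replicate 2 in its group. The part of dividing cells in the Tfrc difference was not tested.

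Of the regulators, Aco1 (A_55_P2085880) had the smallest span of group means, with means of 0.36 ± 0.07, 0.42 ± 0.11 and 0.42 ± 0.21 and differences of at most 0.06. Ireb2 (A_52_P77332) read 0.05, 0.08, 0.04, 0.40 and 0.23 in control. It read -0.15, -0.09, -0.14, -0.07 and -0.29 in N1N2 and 0.24, -0.27, -0.33, -0.20 and 0.07 in N1N2 plus Lrp6. Every N1N2 array was below every control array, but the difference of -0.31 was not called (limma adjusted p = 0.0766); it was called in a fit of these 2 groups (0.0255) and with array weights (0.0178).

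Epas1 was read by 3 probes that did not move together. On A_51_P250058 control arrays read 2.19, 2.04, 2.30, 2.39 and 2.08, N1N2 arrays 1.95, 1.74, 1.77, 1.49 and 1.41, and N1N2 plus Lrp6 arrays 1.92, 1.59, 1.60, 1.92 and 1.97. Both treated groups lay below all control arrays, and the probe fell in N1N2 by 0.53 (SE 0.12, limma adjusted p = 0.00899), a call that held without each array in turn; on the shared slide the difference was -0.39 (limma adjusted p = 0.342). The difference of N1N2 plus Lrp6 from control was -0.40 (limma adjusted p = 0.167). A_55_P2053988 had means of 1.14, 0.83 and 0.81 with no call, and followed the first (r = 0.71).

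The brightest Epas1 probe, A_55_P2077448, had the opposite sign. Its arrays read 0.93, 0.39, 0.50, 0.36 and 0.41 in control, 1.79, 0.75, 0.67, 0.83 and 0.75 in N1N2, and 0.09, 1.52, 0.82, 0.55 and 0.34 in N1N2 plus Lrp6. Single high arrays stood out, and the difference of 0.44 in N1N2 was not called (limma adjusted p = 0.283). Its correlation with the other probes was -0.34 and -0.59 over the 15 arrays. With the probes disagreeing, no direction is given for the gene.

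**Figure D3:**
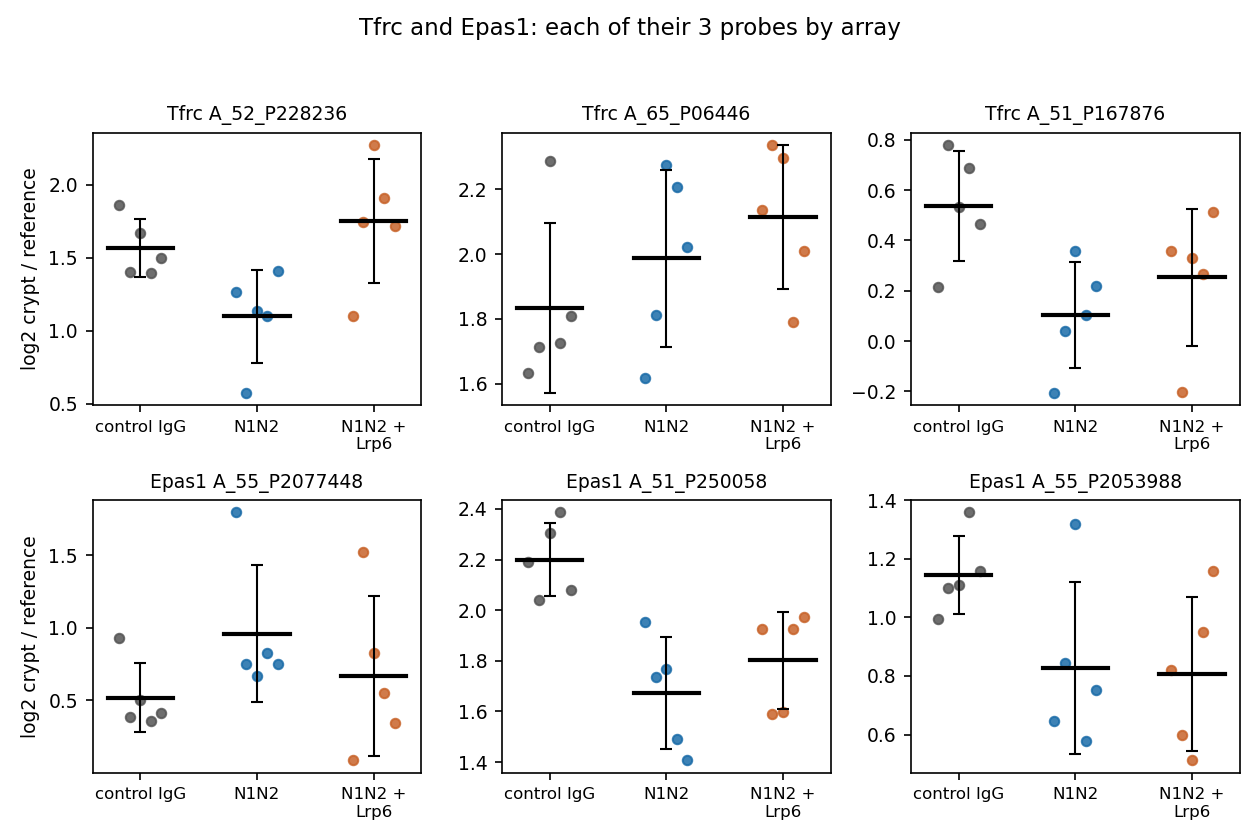
Log2 ratio of crypt over reference RNA on each array (points) for the 3 probes of Tfrc (top row) and of Epas1 (bottom row), by group, with mean and SD; the y axes differ between panels. The lowest Tfrc group is N1N2 on the left and right probes but not on the middle one, and the left Epas1 probe is highest in N1N2 where the others are highest in control.

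Cybrd1, Slc40a1 and Fth1 followed each other over the 15 arrays. The correlation was 0.86 between Cybrd1 and Slc40a1, 0.82 between Cybrd1 and Fth1 and 0.89 between Slc40a1 and Fth1, and 0.58, 0.47 and 0.65 once group means were removed. Their correlations with Slc11a2, Heph, Tfrc, Aco1 and the brightest Epas1 probe lay between -0.24 and 0.43, and between -0.11 and 0.47 with group means removed. The highest of the latter were Slc40a1 with Heph and Fth1 with Slc11a2 (both 0.47), as high as Cybrd1 with Fth1. Correlations of the 3 genes with Ireb2 lay between 0.49 and 0.57, and became -0.03, -0.04 and 0.17 with group means removed. These are descriptions over arrays that share a reference and their treatment groups. Among named genes, those most like Cybrd1 over the 15 arrays were Alppl2, an alkaline phosphatase (r = 0.93), Trpv6, the brush border calcium channel (r = 0.91), and Akp3, an intestinal alkaline phosphatase (r = 0.89). Those most like Slc40a1 were Slc16a9, of the monocarboxylate transporter family (r = 0.93), Scarb1, a receptor for high-density lipoprotein (r = 0.93), and again Akp3 (r = 0.93). Akp3 went from 2.57 ± 0.49 in control to 1.11 ± 0.45 in N1N2 and 1.03 ± 0.62 in N1N2 plus Lrp6.

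Since iron uptake belongs to the duodenum, genes known for their place along the small intestine were read beside these values; they were chosen after the values had been seen, and Trpv6 and Akp3 are also among the genes just named. Of 7 genes of the proximal small intestine, all 7 had a mean in N1N2 below that in control and 2 were called lower: Akp3 by 1.46 and Pdx1, a homeobox factor of the duodenum, by 0.53 (limma adjusted p = 0.00546 and 0.0336), where 6.03% of all named genes were called lower. Trpv6 differed by -0.93 (limma adjusted p = 0.0552), S100g, a calcium-binding protein, by -0.78 (0.118) and Slc46a1, the folate transporter, by -0.57 (0.135), while Gata4 differed by -0.14 (0.27) and Onecut2 by -0.19 (0.586). In N1N2 plus Lrp6, 6 of the 7 had a mean below that in control. Only Akp3 was called against control (difference -1.55, limma adjusted p = 0.0348), where 0.224% of all named genes were called lower. The Gata4 mean in that group lay 0.12 above control (not called) and 0.26 above N1N2 (limma adjusted p = 0.0274). The mean level of the 7 genes lay between 2.76 and 3.42 on control arrays, 2.09 and 2.94 on N1N2 arrays and 2.18 and 2.75 on N1N2 plus Lrp6 arrays. Over the 15 arrays this mean had r = 0.87 with Cybrd1, 0.92 with Slc40a1 and 0.90 with Fth1, and r = 0.66, 0.78 and 0.75 with group means removed. It includes Akp3 and Trpv6, named above for their correlation with Cybrd1 or Slc40a1, so a high r with those genes was partly built in. The r without Akp3 and Trpv6 was not computed.

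Of 4 genes of the distal small intestine (Fabp6, Slc10a2, Slc51a and Slc51b, which handle bile acids in the ileum), all 4 had a higher mean in N1N2 than in control and 0 were called (2 at an unadjusted limma p under 0.05). Their mean level lay between 5.55 and 6.36 on control arrays and 6.12 and 7.11 on N1N2 arrays and 5.6 and 6.90 on N1N2 plus Lrp6 arrays. Its correlation was -0.33 with Cybrd1 and -0.22 with Slc40a1 (-0.15 and 0.08 with group means removed), against 0.64 with Heph and 0.76 with the brightest Epas1 probe (0.64 and 0.70). The part of the stretch of intestine sampled in the Cybrd1, Slc40a1 and Fth1 differences was not tested.

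Of 11 markers of stromal and muscle cells, 2 were called lower in N1N2 against control, 4 in N1N2 plus Lrp6 against N1N2 and 2 in N1N2 plus Lrp6 against control (all 11 at an unadjusted limma p under 0.05 in the last), where 6.03%, 7.36% and 0.224% of all named genes were called lower. They had a list mean of -2.60 in control, -3.04 in N1N2 and -3.57 in N1N2 plus Lrp6. Of 8 lymphocyte markers, 2 were called lower in N1N2, with means of 2.70, 2.22 and 2.27. By sign all 8 lay below control in both treated groups (6 in N1N2 and 4 in N1N2 plus Lrp6 at an unadjusted limma p under 0.05). Of 7 goblet cell markers, 3 were called higher in N1N2 against control, where 7.03% of all named genes were, and 2 lower when the Lrp6 antibody was added, with means of 6.44, 7.20 and 6.66. Of 8 enteroendocrine markers 1 was called higher in N1N2, with means of 4.31, 4.91 and 4.81, and none of 5 tested Paneth cell markers was called (1, 0 and 0 at an unadjusted limma p under 0.05). In N1N2 plus Lrp6 against control, 1 goblet and 1 enteroendocrine marker were called higher, where 0.28% of all named genes were. None of 7 red cell genes was called, nor did any pass an unadjusted limma p of 0.05. The part of these cells in the values of the iron genes was not tested.

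The sequence upstream of the start site is shown for the genes with a called probe for which RefSeq promoters were at hand (build GRCm38.p6, 5 of the 9 genes matched). For Tfrc the other probes were not called. Each stretch holds the 250 bases before the start, 5′ to 3′ on the coding strand, all on the plus strand of the genome: chr2:71117804-71118053 for Cybrd1, chr19:9982396-9982645 for Fth1 and chr16:32608872-32609121 for Tfrc, the last 2 being the second of 2 listed start sites, which in both genes holds more hypoxia cores than the first. Capitals mark the core letters of the hypoxia response element (ACGTG or GCGTG) and the CCAAT box, each on either strand.
Cybrd1: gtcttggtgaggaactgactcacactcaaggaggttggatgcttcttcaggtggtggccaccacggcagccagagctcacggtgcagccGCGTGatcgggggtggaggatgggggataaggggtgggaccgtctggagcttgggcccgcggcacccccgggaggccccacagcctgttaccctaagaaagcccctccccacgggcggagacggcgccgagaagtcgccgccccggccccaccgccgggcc
Fth1: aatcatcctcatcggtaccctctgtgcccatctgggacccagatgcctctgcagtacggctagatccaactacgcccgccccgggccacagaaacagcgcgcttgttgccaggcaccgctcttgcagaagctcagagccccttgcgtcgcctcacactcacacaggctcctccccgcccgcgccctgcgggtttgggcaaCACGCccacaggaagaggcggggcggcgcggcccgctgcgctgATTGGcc
Tfrc: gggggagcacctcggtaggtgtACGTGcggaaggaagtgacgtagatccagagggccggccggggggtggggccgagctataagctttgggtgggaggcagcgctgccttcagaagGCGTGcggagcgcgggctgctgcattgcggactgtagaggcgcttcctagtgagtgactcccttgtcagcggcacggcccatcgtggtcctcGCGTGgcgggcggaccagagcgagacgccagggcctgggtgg

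The Cybrd1 stretch holds 1 hypoxia core, GCGTG, from base -161 to -157 before the start. That of Fth1 holds the same core on the opposite strand from -50 to -46 and a CCAAT box on the opposite strand from -7 to -3. The Tfrc stretch holds 3 hypoxia cores, from -228, -134 and -42. At the first listed start site, Fth1 has neither motif, and Tfrc has 2 hypoxia cores and 1 CCAAT box. Such matches are common: of 32851 mouse promoter stretches of 250 bases, 38.6% hold a hypoxia core and 33.8% a CCAAT box on either strand. They describe the letters, and they do not show that a factor binds there.

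Other genes of iron handling were read from 6 lists with 107 genes, of which 101 were tested with 1 probe each. In N1N2 against control 4 were called higher and 17 lower, 20.8% of them, where 13.1% of all 16055 named genes were called, 7.03% higher and 6.03% lower. Between the treated groups 20 were called higher and 4 lower with the Lrp6 antibody, 23.8% against 16.5% of all named genes (9.13% higher, 7.36% lower). Against control, N1N2 plus Lrp6 had 1 lower, 0.99% against 0.505% (0.28% higher, 0.224% lower). These lists were also written with earlier results known.

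The iron-sulphur assembly list, 28 of the 101 tested genes, held 9 of the 21 calls in N1N2 against control and 10 of the 24 between the treated groups. Iron-sulphur clusters are built in mitochondria and serve respiration and DNA synthesis. Of 28 genes, 9 were called lower and 0 higher in N1N2 against control, with a list median of -0.19, and 10 were higher and 0 lower in N1N2 plus Lrp6 against N1N2, with a median of 0.24; the median of all named genes was -0.00 and -0.01. Of all named genes, 6.03% were called lower in the first comparison and 9.13% higher in the second. None of the 28 was called between N1N2 plus Lrp6 and control (4 at an unadjusted limma p under 0.05). Hspa9, the mitochondrial chaperone mortalin, fell by 0.64 and rose by 0.70, and Fdx1, a ferredoxin, fell by 0.61 and rose by 0.51 (SE 0.08 to 0.10 in both). Lyrm4, a partner of the cysteine desulphurase, moved by -0.53 and 0.66, Glrx5, a glutaredoxin that hands clusters on, by -0.45 and 0.61, and Hscb, a co-chaperone, by -0.49 and 0.45, all called. Ciao2a, of the cytosolic assembly, was lower in N1N2 by 0.46 (not called without control replicate 2 or 5), and Nubp2 was called in the second comparison and not in the first, at 0.46. The proliferation markers given above moved the same way in the same arrays, and their part in this list was not tested. On the shared slide alone none of the 28 was called, but hardly any of all probes were called there, so this says little about the list.

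Ferritin turnover was represented by Ncoa4, the receptor that delivers ferritin for breakdown. It fell with Cybrd1 and Slc40a1, from 1.20 ± 0.26 in control to 0.23 ± 0.34 in N1N2 (limma adjusted p = 0.0141) and 0.02 ± 0.56 in N1N2 plus Lrp6, and it was the only listed gene called in N1N2 plus Lrp6 against control (difference -1.18, limma adjusted p = 0.0408), a call lost in 9 of 10 cases when single arrays were left out (held without N1N2 plus Lrp6 replicate 5) and in 4 of 13 alternatives. Ftl1, the ferritin light chain, moved by 0.13 in N1N2 against control, not called, and by -0.47 in N1N2 plus Lrp6 against N1N2 (limma adjusted p = 0.0089); with median centring the latter was 0.18 and not called. No other gene of the 7 tested in this list was called.

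Among 19 tested genes of uptake, export and transferrin, 4 were lower in N1N2 and 3 higher in N1N2 plus Lrp6 against N1N2. Of all named genes, 6.03% were called lower in the first comparison and 9.13% higher in the second. Steap2, a metalloreductase, fell by 0.86 and rose by 0.77, and Steap3, the reductase that works with the transferrin receptor, by 0.26 and 0.25. The Steap3 calls were lost without 8 of 10 single arrays in N1N2 (held without control replicate 4 or N1N2 replicate 1) and without 6 of 10 in the other comparison (held without N1N2 replicate 1 or 3 or N1N2 plus Lrp6 replicate 1 or 5). Trf, transferrin itself, fell by 0.71 and Hfe, a binding partner of the transferrin receptor, by 0.58 in N1N2. Lcn2, which captures bacterial iron carriers, rose by 0.55 in N1N2 plus Lrp6 against N1N2.

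None of the 11 tested genes of hepcidin and iron sensing was called. Hamp, hepcidin, had means of 0.05, 0.13 and 0.12, and its largest difference was 0.08. At an unadjusted limma p under 0.05, 2, 1 and 1 of the 11 passed in N1N2 against control, N1N2 plus Lrp6 against N1N2 and N1N2 plus Lrp6 against control.

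Genes of the HIF pathway went both ways in N1N2, with 3 higher and 2 lower of 20 tested, where 7.03% and 6.03% of all named genes were. Vegfa, the vascular growth factor, rose by 0.67 and fell by 0.67 when the Lrp6 antibody was added, and Bnip3, a mitophagy receptor, rose by 0.39 and fell by 0.35. Ndrg1 rose by 0.69. The N1N2 calls of Bnip3 and Ndrg1 were each lost without 6 of 10 single arrays (both held without control replicate 1 or 3 or N1N2 replicate 1, Bnip3 also without N1N2 replicate 5 and Ndrg1 without N1N2 replicate 2), the second Bnip3 call without 8 of 10 (held without N1N2 replicate 1 or N1N2 plus Lrp6 replicate 5), and that of Vegfa in N1N2 without control replicate 2 or 5. Over the other alternatives the Bnip3 difference in N1N2 lay between 0.15 and 0.80. Pdk1, a kinase that inhibits pyruvate dehydrogenase, fell by 0.49 and rose by 0.48, and Car9, a carbonic anhydrase, fell by 0.54. Slc2a1, the glucose carrier GLUT1, was called only in N1N2 plus Lrp6 against N1N2, at -0.71. Hif1a had differences of -0.14 and 0.04, not called.

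Of 16 genes of haem synthesis and breakdown, Ppox rose by 0.41 and Blvrb, a biliverdin reductase, fell by 0.32 in N1N2, and 6 were higher in N1N2 plus Lrp6 against N1N2, among them Urod by 0.54, Blvra by 0.48, Blvrb by 0.36, Alad by 0.32 and Hmox2 by 0.25. Of all named genes, 7.03% were called higher and 6.03% lower in N1N2, and 9.13% higher in N1N2 plus Lrp6 against N1N2. The Ppox call was lost without 8 of 10 single arrays (held without N1N2 replicate 2 or 3), the Blvrb call in N1N2 without 5 (control replicates 1, 2 and 5, N1N2 replicates 3 and 4), the Hmox2 call without 7 (held without N1N2 replicate 1 or 5 or N1N2 plus Lrp6 replicate 3) and the Alad call without 4 (N1N2 replicates 2 and 4, N1N2 plus Lrp6 replicates 1 and 4). Hmox1, the inducible haem oxygenase, had differences of -0.03 and -0.20 and was not called.

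**Figure D4:**
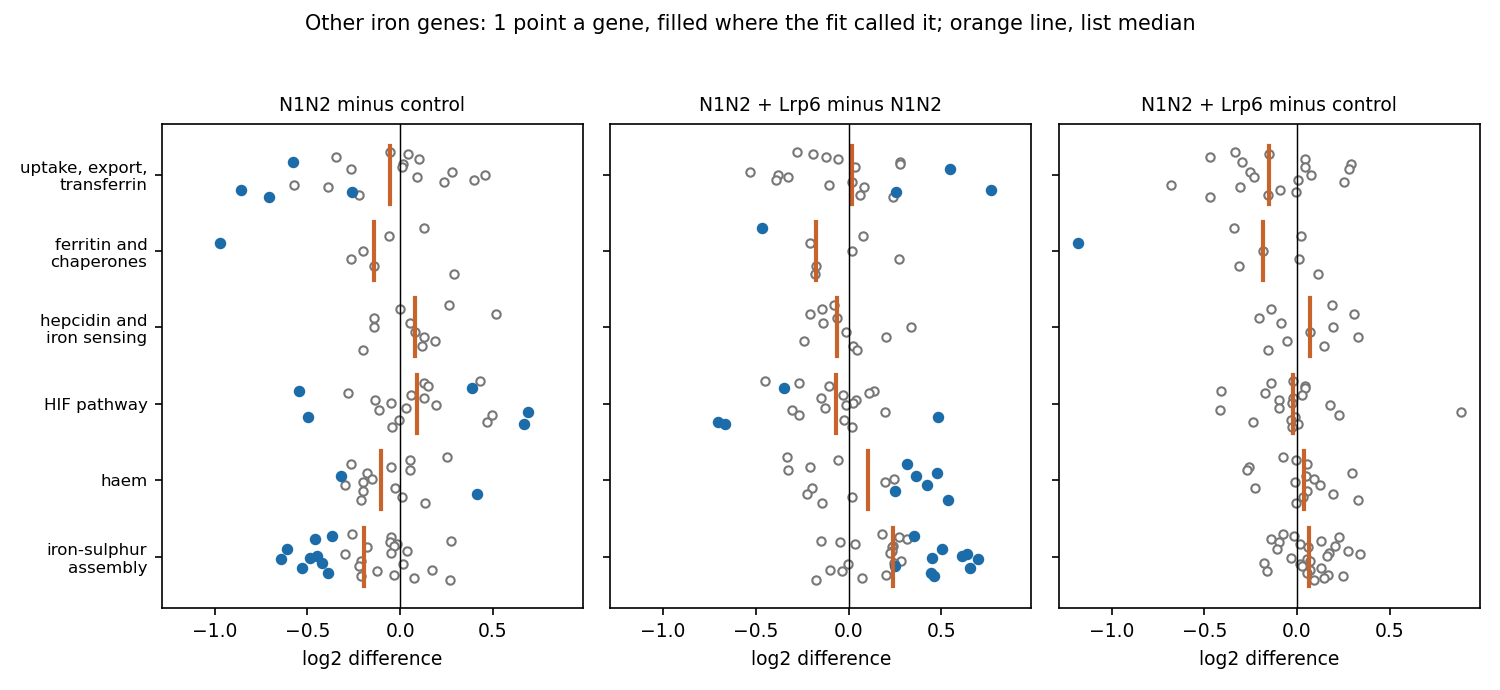
Difference between group means on the log2 scale (x axis) for the 101 tested genes of the 6 lists of iron handling (rows), 1 point a gene; filled points passed the adjusted p threshold and the orange line is the list median. The filled points of the iron-sulphur list lie left of 0 in the first panel and right of 0 in the second, and the single filled point of the third panel is Ncoa4.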

How the data were processed

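Crypt RNA (Cy5, red) was hybridised with a common reference RNA (Cy3, green) on 15 Agilent arrays read in both colours, per the labels' protocols; the dyes were never swapped. The scanner files the authors deposited hold median intensity and background intensity per spot and a log10 ratio made by Feature Extraction 11.0.1.1, per the file headers. A value table deposited by the authors holds log2 ratios. For it, the submitters' processing notes list only limma (3.6.7) and R (3.0.0); its columns had medians of 0.0144 to 0.0286 and a slope of 0.999 to 1.003 on the values computed here. Probes were designed on build mm9, per the file headers.

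From the median intensities, 306 to 642 spots other than controls were left out per array on outlier flags, background was corrected by normexp (offset 50), ratios were normalized by loess within each array (weight 0 for control spots), and spots of a probe were averaged, so a spot left out drops that array from a probe's mean only where no other spot is left. Of 39429 probes, 28480 were kept, those well above background in the red channel on 4 or more of the 5 arrays of some group. Brightness in the reference channel was not part of this filter. No spot of these probes was saturated. All 15 arrays entered a limma 3.58.1 fit (R 4.3.3, data.table version 1.17.8), two-sided, with Benjamini-Hochberg adjustment over all probes kept and a threshold of 0.05. The number of arrays limits the precision. Data simulated for N1N2 against control over 28480 probes had 100 probes changed by 0.5 and 100 by 1 on the log2 scale. Of these, 56% of changes of 0.5 and 93% of changes of 1 were recovered, with 8 false calls. In the real comparison 3257 probes were called, far more than were changed in the simulation, so these shares need not hold for it.

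Probes carry accessions, named through RefSeq; 26581 of 39429 got a gene symbol. A gene in a list is represented by its kept probe of highest mean red signal. The genes, lists and tests were chosen with earlier results of these data known. Named were every probe of the 9 genes, called genes of each list (at most 6 of the largest differences per comparison, with Hamp, Ftl1, Trf, Hmox1, Hif1a and Vegfa in any case; Hmox2 and the genes of intestinal segments were added after the values were seen; some genes the rule names are not reported here), for genes whose group means span at least 1 the 3 best correlated genes, and the markers. Alternatives were another background correction and normalization, the scanner's ratio, the deposited table, other filters, 1 probe per gene, fits on 2 groups, replicate and slide blocks, array weights and leaving out each array.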

Additional observations from a re-analysis of the deposited data

Results flagged for a closer look

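Within a group of 5 arrays, 6 of 51 sets of values had a single array set apart from the other 4 by more than Dixon's 95% limit; chance flags about 1 set in 20. N1N2 plus Lrp6 replicate 1 was low for Slc11a2 (A_51_P388737, 1.01 against 1.62 to 1.84 on the others) and for Heph (A_55_P1994194, 6.62 against 7.29 to 7.43). N1N2 replicate 4 was high for Slc11a2 on its dimmer probe (A_52_P254298, 0.53 against 0.14 to 0.24). Control replicate 3 was high for Tfrc on A_65_P06446 (2.29 against 1.63 to 1.81). On the brightest Epas1 probe (A_55_P2077448), control replicate 1 read 0.93 against 0.36 to 0.50 and N1N2 replicate 1 read 1.79 against 0.67 to 0.83. None of the 6 was on a probe that passed the threshold in any comparison.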

How the results depend on the processing

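The labels state no pairing by replicate number. Of 15 correlations between same-numbered arrays of different groups, 4 were over 0.1 (range -0.43 to 0.62). All 4 were between control and N1N2: 0.62, 0.28, 0.38 and 0.12 for replicates 1, 2, 4 and 5, with -0.01 for replicate 3. Whether these 2 groups were paired is therefore not settled. With a replicate block, 2 of the 17 iron gene probes were called between the treated groups in place of 1, and 0 in place of 3 in N1N2 plus Lrp6 against control, where 32 in place of 102 probes were called in all and 0 of the ferritin list; the counts for N1N2 against control stayed within 1.5 times. The slide as a random block had a negative correlation, -0.18. In that setting the SEs came out smaller. For Slc40a1 in N1N2 plus Lrp6 against control the SE was 0.20 in place of 0.28. All arrays of that group lay on slides of their own. The larger counts given below for slide as a random block are therefore not read as stronger results.

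For the 17 probes, calls in N1N2 against control numbered 3 with the scanner's ratio, 3 with probes well above background on all 15 arrays (12 of the 17 left), 3 with 1 probe per gene, 8 in a fit of the 2 groups, 8 with array weights, and 0 with slide as a fixed block or within the shared slide, which leaves 2 arrays against 2. Between the treated groups they numbered 2 without background subtraction, with median centring, with the deposited table, with the strict filter and with slide as a random block. For N1N2 plus Lrp6 against control there were 0 with median centring, 1 with scaling between arrays, the scanner's ratio, no filter or only those 2 groups, and 7 with slide as a random block. Leaving out each array gave 4 to 6, 0 to 2 and 0 to 3 calls in the 3 comparisons; the cause of the other shifts was not tested.

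Over all probes, calls in N1N2 against control numbered 1456 with median centring, 2153 with the scanner's ratio, 4969 with 2 groups, 117 with slide as a fixed block, 3 within the shared slide, 7518 with array weights and 1747 to 3256 without single arrays (lowest without control replicate 2). Between the treated groups they numbered 8328 with slide as a random block and 2938 to 5624 without single arrays, and the share called higher went from 58.5% to 77.2% with median centring. Calls of N1N2 plus Lrp6 against control numbered 34 with median centring, 63 with scaling, 181 with the scanner's ratio, 54 with 2 groups, 154 with a normexp offset of 16, 3272 with slide as a random block, 509 with array weights and 27 to 422 without single arrays (highest without N1N2 plus Lrp6 replicate 5), with 54.9% higher in the fit reported, 38.1% with the scanner's ratio and 68.3% with scaling.

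In the lists, calls in N1N2 against control were 0 for every list under slide as a fixed block and within the shared slide. Median centring gave 5 for iron-sulphur assembly, 2 for the HIF list and 0 for haem; the scanner's ratio gave 3 for HIF and 1 for haem, and scaling gave 0 for haem. The fit of 2 groups gave 8 for HIF, 3 for ferritin and 1 for hepcidin. Array weights gave 8 for HIF, 3 for ferritin, 5 for haem, 1 for hepcidin and 10 for uptake, and slide as a random block 2 for ferritin, 5 for haem and 1 for hepcidin. Between the treated groups, calls were 0 for ferritin and 1 for hepcidin with median centring, 3 for haem with scaling, 16 for iron-sulphur assembly and 1 for hepcidin with array weights, and 18 for iron-sulphur assembly, 7 for uptake, 2 for ferritin and 2 for hepcidin with slide as a random block. In N1N2 plus Lrp6 against control, ferritin had 0 with median centring, no filter or 2 groups; HIF had 1 with array weights, and slide as a random block gave 4 for HIF, 3 each for ferritin, haem, uptake and iron-sulphur assembly and 1 for hepcidin. Without single arrays, iron-sulphur assembly had 8 to 10, 9 to 15 and 0 calls in the 3 comparisons, uptake 3 to 4, 2 to 4 and 0, HIF 2 to 5, 3 to 5 and 0 to 2, haem 0 to 2, 4 to 7 and 0, ferritin 1, 1 to 2 and 0 to 1, and hepcidin 0 to 1, 0 and 0.

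Among called values, a sign turned in 2 cases, both between the treated groups with median centring: Fth1 at 0.51 and Ftl1 at 0.18. Of 1168 values of the iron genes under alternatives, 61 lost a call and 25 gained it. Another 57 changed sign without being called in either fit. The Cybrd1 difference of N1N2 from control was -1.24 with the scanner's ratio (limma adjusted p = 0.265).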
